A study of Mus musculus with 9 samples.

Results

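Immediate early genes are transcribed within minutes of a stimulus without new protein synthesis. The 10 described here, Fos, Fosb, Jun, Junb, Egr1, Egr2, Nr4a1, Arc, Npas4 and Ier2, were taken by name from the 47593 rows of a gene count table of 9 mouse medulloblastomas. All 10 had a row and all 10 passed the filter on low counts that left 18356 genes for testing. Medulloblastoma is a tumour of the cerebellum, and these tumours carried SmoM2, an activated form of Smoothened that transmits the Hedgehog signal. Every mouse was of the C57BL/6J strain, with the Atoh1-cre transgene (Math1-Cre in the descriptions) and the Smo/EYFP allele at the ROSA26 locus, so Cre started the oncogene in cells that had expressed Atoh1, chiefly granule neuron progenitors. By genotype label 3 tumours were Cdk6+/+ and 6 were Cdk6-/-. The comparison asked how tumours differ when Cdk6, a kinase that works with D-type cyclins at the start of the cell cycle, is deleted. Age, treatment, the deleted exon and the number of animals are not given in the labels, so p-values measure the spread between these samples.

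In most cells the starting signal passes through the MAP kinase cascade to serum response factor (SRF) and its ETS partners, or through calcium and cyclic AMP to CREB. Both are already present in the resting cell and need only be modified to act. The products then act on a second wave of genes. Fos and Jun proteins pair into the AP-1 transcription factor, Egr1 and Egr2 are zinc finger factors, Nr4a1 is an orphan nuclear receptor and Npas4 is a neuronal factor that depends on calcium entry. Arc acts at the synapse, where it promotes removal of AMPA receptors. In neurons these genes report recent electrical activity, while in other cells several of them respond to growth factors, wounding or tissue handling.

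The libraries held between 21.4 and 56.8 x 1e6 counts, and each Cdk6+/+ library was deeper than each Cdk6-/- library. Levels are CPM, counts per 1e6 counts of the library after TMM scaling. Cdk6 itself, counted over all exons, was between 551 and 562 CPM in Cdk6+/+ and between 2.17 and 562 CPM in Cdk6-/- tumours, which does not check the genotype. A pair of Cdk6-/- tumours stood apart. The 9 mature granule neuron markers summed to 5649 CPM in tumour 1 and 5862 CPM in tumour 5, against 372 to 1067 CPM in the other Cdk6-/- tumours and 839 to 1120 CPM in Cdk6+/+. The 6 proliferation markers summed to 0.752 CPM in tumour 5, with Bub1 at 0, and to between 1579 and 2332 CPM in the remaining tumours. Purkinje markers summed to 8505 CPM in tumour 5 and 62.9 CPM in tumour 1, against 644 to 1298 CPM in Cdk6+/+ and 68.5 to 373 CPM in the other Cdk6-/- tumours, so tumour 5 alone stood apart in them. Results are therefore given with all 9 tumours and without Cdk6-/- tumours 1 and 5. Fewer cells of a type and less RNA per cell cannot be told apart in these whole tumours.

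Promoters are shown because several of the genes were high in the same tumours, and each letter string can be set against their levels. RefSeq windows (GRCm38.p6) were found for 7 of the 10 genes. The 250 bases before the start are printed 5′ to 3′ for Fos, Fosb, Nr4a1 and Npas4, which had their highest levels in Cdk6-/- tumours 1 and 5, and for Jun and Junb, which did not. Capitals mark TGACG, the core of the site that CREB binds, or CGTCA on the other strand, and GCGNGGGCG, the site of Egr factors, on either strand.
Fos (chr12:85473640-85473889, plus strand): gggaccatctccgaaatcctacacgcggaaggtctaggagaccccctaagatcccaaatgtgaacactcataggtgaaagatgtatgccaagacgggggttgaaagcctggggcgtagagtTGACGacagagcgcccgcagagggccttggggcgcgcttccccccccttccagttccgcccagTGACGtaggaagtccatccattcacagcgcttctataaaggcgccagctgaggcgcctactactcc
Fosb (chr7:19310046-19310295, minus strand): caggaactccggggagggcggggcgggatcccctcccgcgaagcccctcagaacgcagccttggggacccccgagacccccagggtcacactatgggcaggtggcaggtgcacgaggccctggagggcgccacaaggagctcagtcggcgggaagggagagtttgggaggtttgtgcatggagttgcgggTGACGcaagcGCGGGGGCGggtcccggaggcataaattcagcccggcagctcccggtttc
Nr4a1 (chr15:101266596-101266845, plus strand): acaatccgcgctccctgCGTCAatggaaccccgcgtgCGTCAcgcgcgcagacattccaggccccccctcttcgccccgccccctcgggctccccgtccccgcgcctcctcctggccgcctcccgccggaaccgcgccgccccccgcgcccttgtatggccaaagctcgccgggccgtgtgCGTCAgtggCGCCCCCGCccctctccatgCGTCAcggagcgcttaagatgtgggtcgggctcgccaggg
Npas4 (chr19:4989972-4990221, minus strand): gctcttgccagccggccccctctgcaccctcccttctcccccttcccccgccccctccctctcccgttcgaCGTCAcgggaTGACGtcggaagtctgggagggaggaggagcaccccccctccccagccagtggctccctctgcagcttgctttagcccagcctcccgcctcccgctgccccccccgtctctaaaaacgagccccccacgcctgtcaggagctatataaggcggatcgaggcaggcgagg
Jun (chr4:95052223-95052472, minus strand): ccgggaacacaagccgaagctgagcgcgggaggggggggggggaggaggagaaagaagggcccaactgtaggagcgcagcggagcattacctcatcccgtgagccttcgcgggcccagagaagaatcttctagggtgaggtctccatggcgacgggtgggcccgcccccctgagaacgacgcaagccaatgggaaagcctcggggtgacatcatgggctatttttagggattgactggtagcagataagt
Junb (chr8:84978749-84978998, minus strand): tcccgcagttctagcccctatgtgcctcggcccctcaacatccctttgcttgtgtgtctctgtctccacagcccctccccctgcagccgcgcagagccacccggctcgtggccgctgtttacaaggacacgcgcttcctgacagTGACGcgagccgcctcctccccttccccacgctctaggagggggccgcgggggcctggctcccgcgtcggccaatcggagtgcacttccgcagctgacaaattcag
The printed windows of Fos, Fosb, Nr4a1, Npas4 and Junb each held at least 1 TGACG, and Nr4a1 held 4, while that of Jun held none. Of 32536 distinct promoter sequences of the same length in the table, 17.9% held this string. Egr2 has 5 annotated windows, not printed, of which 3 held TGACG and 4 held a CArG box, the binding site of SRF, which 1.48% of promoters held. Those 3 windows overlap and hold the same TGACG sites and the same CArG box, so they count 1 stretch of sequence. The remaining CArG box lay in a separate window. GCGNGGGCG stood in the windows of Fosb and Nr4a1, against 4.74% of promoters. The full 8-base site TGACGTCA (1.56% of promoters) and the AP-1 site TGANTCA (6.73%) were in none of the 11 windows of these 7 genes. TGACGTCA contains TGACG, so those searches overlap. With Junb among the genes that held TGACG, the string did not separate genes that were high in tumours 1 and 5 from the others. Egr1 and Arc, also high in those tumours, were not part of this comparison.

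Over all 9 tumours none of the 10 genes passed edgeR's quasi-likelihood test at an adjusted p under 0.05. Across all tested genes 5.19% passed, 2.76% higher and 2.43% lower in Cdk6-/-. All 10 had a positive log2 fold change (Cdk6-/- minus Cdk6+/+), as did 10999 of the 18356 tested genes. Of the 10, 6 had an unadjusted p under 0.05 in edgeR. The share of all genes under that unadjusted limit was not computed, so such counts here and below have no background. The median log2 fold change of the 10 was 1.79, beside 0.16 over all tested genes. Fosb and Egr1 lay higher in every Cdk6-/- tumour than in any Cdk6+/+ tumour, 2 of 10, where 7.56% of all tested genes did so. None lay lower in every Cdk6-/- tumour, where 7.98% of all genes did. DESeq2 on the same counts called 6 of the 10 higher (Fos, Fosb, Egr1, Nr4a1, Arc and Npas4) and none lower, where it called 8.01% of its tested genes higher and 3.84% lower. Limma-voom called none of the 10, with 4 at an unadjusted p under 0.05, where it called 6.23% of all genes, 3.18% higher and 3.05% lower. Without Cdk6-/- tumours 1 and 5 edgeR called Fosb and Egr1 higher, 2 of 10, and none lower, where 8.12% of genes were called higher and 6.14% lower. The median log2 fold change of the 10 was then 1.00, beside 0.04 over all genes.

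**Figure D1:**
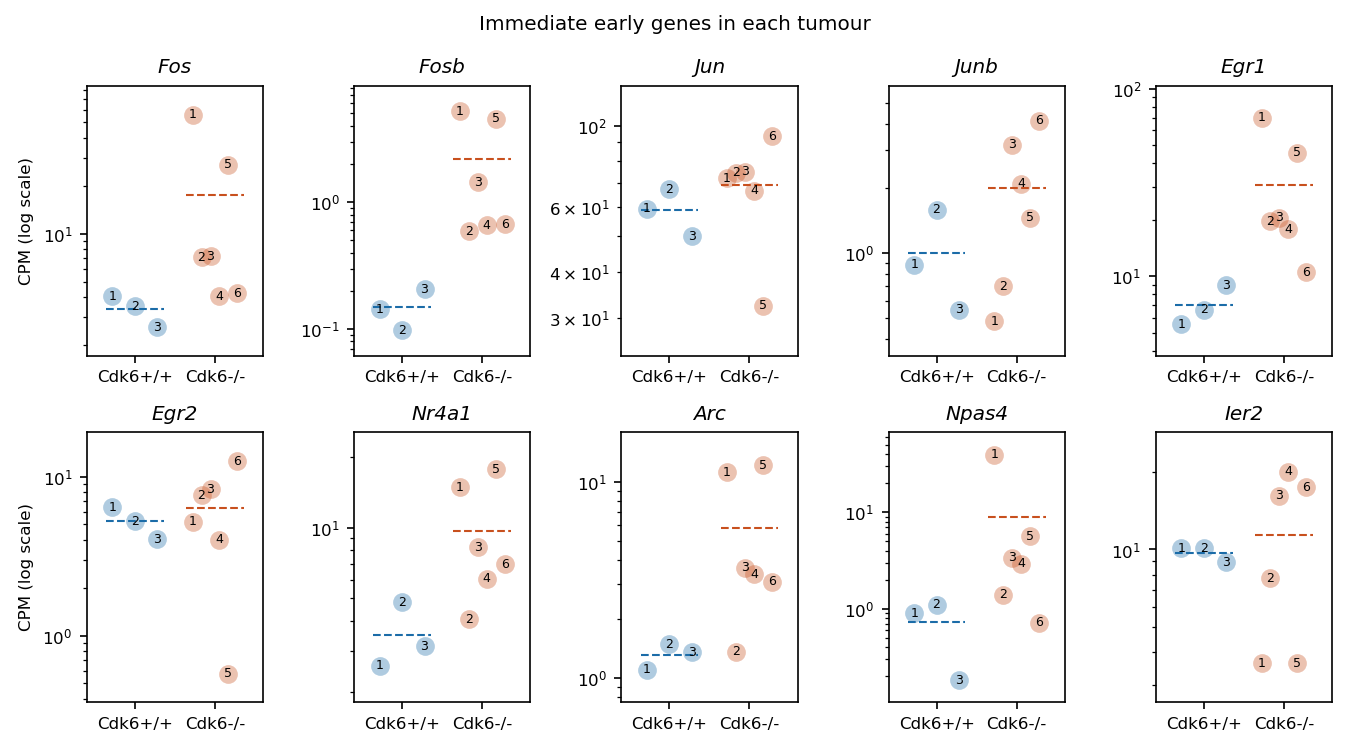
CPM on a log axis for each of the 10 genes, 1 numbered point per tumour (blue Cdk6+/+, orange Cdk6-/-; dashed lines are group means). Fosb and Egr1 show no overlap between groups, and Cdk6-/- tumours 1 and 5 are the highest points for Fos, Fosb, Egr1, Nr4a1, Arc and Npas4.

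Of the 10 genes Fosb had the largest log2 fold change, with all 9 tumours and without Cdk6-/- tumours 1 and 5. Fosb (chromosome 7, 19302696 to 19310051, minus strand, GRCm38) encodes a Fos protein that dimerises with Jun proteins, and its stable splice form accumulates in neurons with repeated activity. It had 0.144, 0.0976 and 0.207 CPM in Cdk6+/+ tumours 1 to 3, from 4 to 8 reads each. In Cdk6-/- tumours it ran from 0.590 CPM in tumour 2 through a median of 1.05 to 5.19 CPM in tumour 1, from 15 to 103 reads. Every Cdk6-/- tumour was above every Cdk6+/+ tumour, and tumours 1 and 5 were the highest. Cdk6+/+ tumours averaged 0.150 ± 0.0551 CPM (SD, n = 3) and Cdk6-/- tumours 2.18 ± 2.11 CPM (SD, n = 6). The log2 fold change was 3.83 (SE 0.98), which did not pass edgeR's test (adjusted p = 0.0512). Without tumours 1 and 5 Fosb rose by 2.48 on the log2 scale (SE 0.56, edgeR adjusted p = 0.0191), with means of 0.150 and 0.839 ± 0.398 CPM (SD, n = 4). The authors' deposited table of 761 genes with an adjusted p of at most 0.0499 holds 1 of the 10, Fosb, at a log2 fold change of 3.45 (SE 0.92, DESeq2 adjusted p = 0.0258). It holds 0 genes of the pathway lists described below, so Crtc2, Spred3 and Dusp5 are not in it. DESeq2 as run here called 2887 genes, 6 of the 10 among them, with Fosb at an adjusted p of 0.000186. The cause of this difference was not tested.

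Fos (chromosome 12, 85473890 to 85477273, plus strand) is the founding member of the family and the usual marker of recently active neurons. It had 4.05, 3.49 and 2.59 CPM in the Cdk6+/+ tumours. In the Cdk6-/- tumours it ran from 4.04 CPM in tumour 4 through a median of 7.15 to 55.7 CPM in tumour 1, with 27.1 CPM in tumour 5. Tumours 2, 3 and 6 were also above every Cdk6+/+ value, and tumour 4 lay within their range. The averages were 3.38 ± 0.736 CPM in Cdk6+/+ and 17.6 ± 20.6 CPM in Cdk6-/- (SD, n = 3 and 6). Fos had a log2 fold change of 2.37 (SE 0.93, edgeR adjusted p = 0.196), which was 0.74 (SE 0.34, adjusted p = 0.170) without tumours 1 and 5.

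The Jun partners were highest in another tumour. Among Cdk6-/- tumours the ratio of highest to lowest was 2.89 for Jun and 8.57 for Junb, against 13.8 for Fos and 8.80 for Fosb. Jun (chromosome 4, 95049034 to 95052222, minus strand), the main DNA-binding partner of Fos, had 59.4, 67.1 and 50.0 CPM in Cdk6+/+ tumours. In Cdk6-/- tumours it was lowest in tumour 5 (32.4 CPM), had a median of 73.2 and was highest in tumour 6 (93.5 CPM). The groups overlapped, with a log2 fold change of 0.23 (SE 0.30, edgeR adjusted p = 0.738). Of its exon bases 7.28% lie opposite the noncoding gene Junos, which had at most 2.10 CPM in any tumour. The strand setting of the counting is not known, so reads from that stretch cannot be told apart. Junb (chromosome 8, 84976909 to 84978748, minus strand), a Jun protein that can restrain Jun, had 0.882, 1.59 and 0.544 CPM and, in Cdk6-/-, from 0.481 CPM in tumour 1 through 1.78 to 4.13 CPM in tumour 6. Its lowest Cdk6-/- value lay below and its highest above all Cdk6+/+ values (log2 fold change 1.00, SE 0.70, edgeR adjusted p = 0.486). In GENCODE M21, 5.76% of its 50-base sequences also occur in a transcript of Prdx2. That gene model starts at 84974484, outside the counted exons, and 0% of the counted exon bases overlap exons of another gene. Whether the shared sequence lies in the counted exons was not examined.

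Per exon length (RPKM, computed here as CPM per kilobase), Jun was the most abundant of the 10 in both groups, at 18.4 RPKM in Cdk6+/+ and 21.6 in Cdk6-/-, and Fosb the least, at 0.0240 and 0.350. In Cdk6+/+ tumours Ier2 came second at 6.37 RPKM, apart from its neighbours on either side. Egr1, Egr2, Fos and Nr4a1 followed between 1.57 and 1.42 RPKM with overlapping ranges. Junb (0.546 RPKM) and Arc (0.429) overlapped each other, and Npas4 (0.222) overlapped Junb but was apart from Arc above it and Fosb below it. In Cdk6-/- tumours all neighbours in the order overlapped. Ier2 (7.49 RPKM), Fos (7.47) and Egr1 (6.85) came next after Jun, and Egr2 came after Arc at 1.88 RPKM.

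Set against the relatives that were not among the 10, Fos was a minor part of its family in most tumours. Fosl2, a Fos relative expressed more steadily, made up 63.9 to 65.1% of the summed RPKM of Fos, Fosb, Fosl1 and Fosl2 in the Cdk6+/+ tumours, and Fos 13.4 to 16.4%. In Cdk6-/- tumours 1 and 5 Fos made up 61.0% and 52.8% and Fosl2 27.1% and 14.3%. In the remaining Cdk6-/- tumours Fos ranged from 10.8 to 21.7%, and in tumour 6 its share was below that of any Cdk6+/+ tumour. Fosb made up at most 3.34% of the family, in tumour 5. Among Jun, Junb and Jund, Jun made up 77.4 to 79.6% in Cdk6+/+ and 58.8 to 77.7% in Cdk6-/- tumours, and Jund 18.9 to 20.5% and 20.4 to 36.6%.

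**Figure D2:**
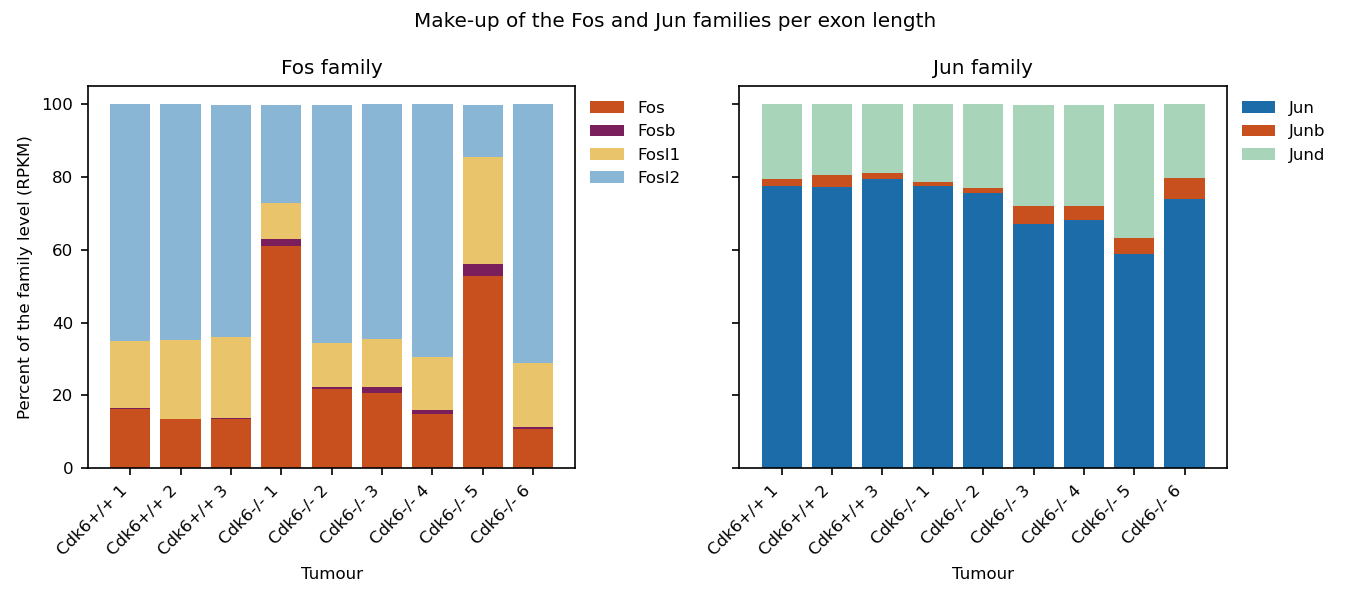
Stacked bars give the percent of the summed RPKM of each family that each gene made up, 1 bar per tumour. Fos (orange, left) takes 61.0% and 52.8% in Cdk6-/- tumours 1 and 5, and Jun (blue, right) remains the largest part of its family in all 9 tumours.

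Of the zinc finger factors, Egr1 had groups apart and Egr2 had groups that overlapped. Egr1 (chromosome 18, 34859823 to 34864984, plus strand) responds to growth factors and to synaptic activity. It had 5.55, 6.64 and 8.97 CPM in Cdk6+/+ and from 10.5 CPM in tumour 6 through a median of 20.1 to 70.1 CPM in tumour 1 in Cdk6-/-. All 6 Cdk6-/- tumours were above all 3 Cdk6+/+ tumours, with 45.6 CPM in tumour 5 and 17.8 to 20.5 CPM in tumours 2, 3 and 4. Averages were 7.05 ± 1.75 CPM and 30.7 ± 22.7 CPM (SD, n = 3 and 6), and the log2 fold change was 2.12 (SE 0.61, edgeR adjusted p = 0.0790). Without tumours 1 and 5 Egr1 rose by 1.29 (SE 0.31, edgeR adjusted p = 0.0237), to 17.1 ± 4.57 CPM (SD, n = 4). Egr2 (chromosome 10, 67535475 to 67542188, plus strand), known for its roles in the hindbrain and in myelinating Schwann cells, had 6.43, 5.25 and 4.04 CPM in Cdk6+/+. In Cdk6-/- it was lowest in tumour 5 at 0.575 CPM, had a median of 6.41 and was highest in tumour 6 at 12.5 CPM. The groups overlapped (log2 fold change 0.28, SE 0.68, edgeR adjusted p = 0.866), and the sign turned without tumour 6 (-0.03, edgeR adjusted p = 0.988).

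Nr4a1, Arc and Npas4, like Fos, had their 2 highest values in tumours 1 and 5. Nr4a1 (chromosome 15, 101266846 to 101274792, plus strand), also called Nur77, had 2.59, 4.81 and 3.14 CPM in Cdk6+/+, and in Cdk6-/- from 4.09 CPM in tumour 2 through 7.61 to 17.7 CPM in tumour 5. Only tumour 2 overlapped with the Cdk6+/+ range (log2 fold change 1.46, SE 0.52, edgeR adjusted p = 0.153). Without tumours 1 and 5 it was 0.86 (SE 0.35, adjusted p = 0.129). Arc (chromosome 15, 74669083 to 74672570, minus strand) had 1.10, 1.49 and 1.35 CPM against 1.36 CPM in tumour 2, a median of 3.52 and 12.2 CPM in tumour 5. Here too tumour 2 alone overlapped (log2 fold change 2.15, SE 0.72, edgeR adjusted p = 0.128; 1.14, SE 0.41, adjusted p = 0.0968 without tumours 1 and 5). Npas4 (chromosome 19, 4984355 to 4989971, minus strand), a basic helix-loop-helix PAS factor that controls inhibitory synapses, had 0.900, 1.10 and 0.181 CPM in Cdk6+/+. It ran from 0.718 CPM in tumour 6 through 3.16 to 39.7 CPM in tumour 1, with 5.66 CPM in tumour 5. Tumour 6 lay within the Cdk6+/+ range and the other 5 above it. Its log2 fold change of 3.61 (SE 1.38, edgeR adjusted p = 0.183) was 1.94 without tumour 1 (adjusted p = 0.207) and 1.54 without tumours 1 and 5 (SE 0.69, adjusted p = 0.162).

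Ier2 (chromosome 8, 84661331 to 84662852, minus strand), a small nuclear protein induced by growth factors, was lowest where Fos was highest. It had 10.1, 10.1 and 8.92 CPM in Cdk6+/+. The Cdk6-/- tumours spread to both sides, with 3.64 CPM in tumour 1 and 3.63 in tumour 5 as the lowest values, a median of 11.9 and 20 CPM in tumour 4 as the highest. Tumours 1, 2 and 5 were below and tumours 3, 4 and 6 above the Cdk6+/+ range, and the log2 fold change was 0.23 (SE 0.57, edgeR adjusted p = 0.868).

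**Figure D3:**
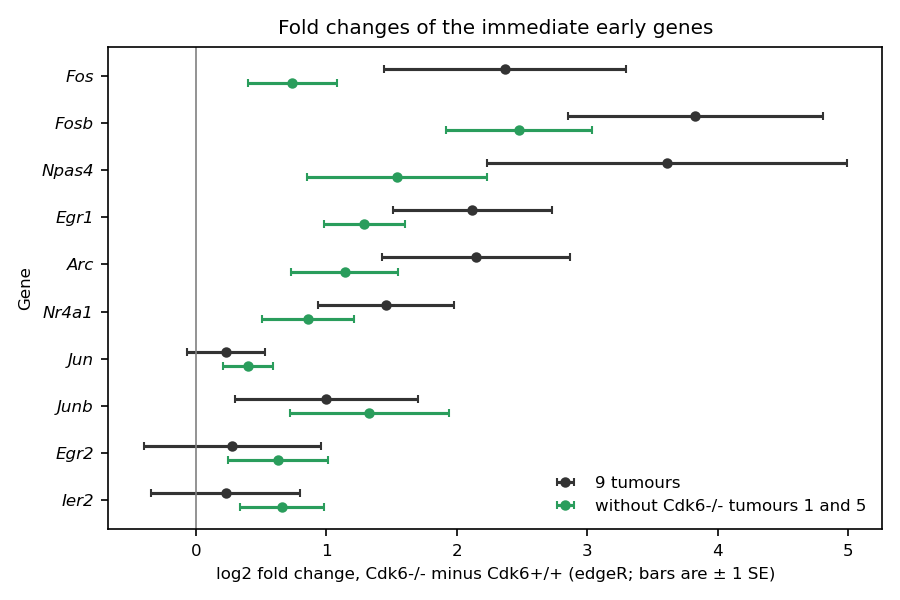
Log2 fold change of each gene (Cdk6-/- minus Cdk6+/+, edgeR) with bars of 1 SE, with 9 tumours in black and without Cdk6-/- tumours 1 and 5 in green. All 20 points are positive, and Fosb stays the largest, at 3.83 and 2.48. Among all tested genes 10999 of 18356 were positive with 9 tumours and 9749 of 18539 without tumours 1 and 5.

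Across tumours the 10 genes did not share 1 profile. Tumours 1 and 5 were the 2 highest of the 9 for 6 genes, Fos, Fosb, Egr1, Nr4a1, Arc and Npas4, where 14.1% of all tested genes had them highest. They were the 2 lowest for Ier2. The highest value was in tumour 6 for Jun, Junb and Egr2 and in tumour 4 for Ier2. No Cdk6+/+ tumour held the highest or second highest value of any of the 10. The share of all tested genes with this trait was not computed, and 6 of the 9 tumours were Cdk6-/-. Of the mature granule neuron markers 8 of 9 also had tumours 1 and 5 highest. The part of these cells in the levels of Fos, Fosb, Egr1, Nr4a1, Arc and Npas4 was not tested.

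**Figure D4:**
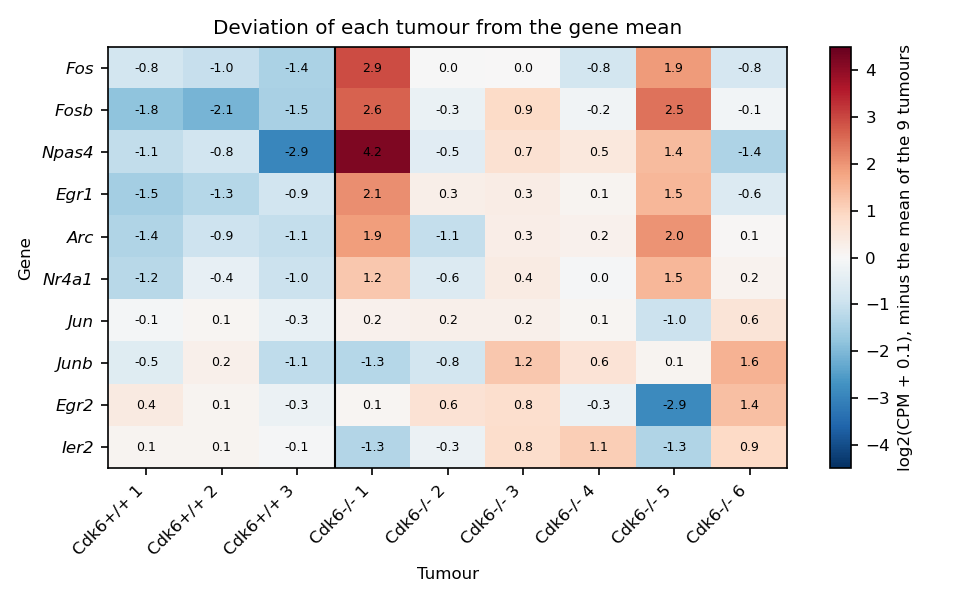
Each cell gives log2(CPM + 0.1) of a gene in a tumour minus the mean over the 9 tumours, red above and blue below. The upper 6 genes are highest in Cdk6-/- tumours 1 and 5, Npas4 most in tumour 1 (4.21), and Egr2 is lowest in tumour 5 (-2.87).

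Other measures moved with the genotype labels. The 5 nuclear RNAs (Malat1, Neat1, Meg3, Snhg11 and Kcnq1ot1) summed to 363 to 610 CPM in Cdk6+/+ and 1527 to 14030 CPM in Cdk6-/-, with Malat1 at 223 to 387 and 1415 to 10419 CPM. The 8 microglia and macrophage markers summed to 281 to 307 and 71.6 to 199 CPM, and the 5 red cell genes to 65.9 to 111 and 0.535 to 8.0 CPM, with Hba-a1 at 0 in tumours 1, 5 and 6. The heat shock list summed to 1535 to 1987 CPM in Cdk6+/+ and 752 to 1453 CPM in Cdk6-/-, with Hspa8 and Hsph1 its most abundant genes. Its stress-induced genes Hspa1a and Hspa1b had at most 3.49 CPM in any tumour. Endothelial and mural markers overlapped at 115 to 216 and 113 to 355 CPM. Astrocyte markers overlapped at 3132 to 3438 and 1530 to 7635 CPM, and so did oligodendrocyte markers at 1184 to 2741 and 243 to 2641 CPM and progenitor markers at 3215 to 3720 and 1749 to 5262 CPM. Without Cdk6-/- tumours 1 and 5 these sums were apart from Cdk6+/+. Astrocyte markers were then lower at 1530 to 2754 CPM and oligodendrocyte markers lower at 373 to 977 CPM, though Olig2 and Sox10 of that list were higher. Progenitor markers were then higher at 4052 to 5262 CPM, while endothelial and mural markers still overlapped at 113 to 314 CPM. The progenitor sum of tumour 5 came mostly from Ptch1 (858 CPM) and Zic1 (842 CPM). Atoh1 was at 0.0442 CPM there, against 51.8 to 197 CPM in the other tumours. Mycn (2.65 CPM), Barhl1 (5.97), Sfrp1 (7.30), Gli2 (11.5) and Gli1 (22.0) were also lowest in tumour 5. The part of all these measures in the levels of the 10 genes was not tested. Xist, from the inactive X chromosome, was at 1583 to 2087 CPM in Cdk6+/+ and 1757 CPM in Cdk6-/- tumour 6, 131 CPM in tumour 1 and under 1 CPM in tumours 2 to 5. Xist and the Y-linked genes Ddx3y, Kdm5d, Uty and Eif2s3y summed to 244 to 332 CPM in tumours 2 to 5, nearly all of it Y-linked. In tumour 1 they summed to 132 CPM, nearly all of it Xist. These sex-linked levels went largely with the genotype label, so their parts cannot be fully told apart. In a fit that also held the summed Y-linked level, Fosb had a log2 fold change of 4.24 (edgeR adjusted p = 0.138) and Egr1 2.51 (edgeR adjusted p = 0.164).

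Of 33 other immediate early genes none passed edgeR's test over 9 tumours, where 5.19% of all genes did, and 8 had an unadjusted p under 0.05. DESeq2 called 5, all higher, where it called 8.01% of its tested genes higher, and limma-voom 0, where it called 6.23%. The 33 genes had a median log2 fold change of 0.72, beside 0.16 over all tested genes. Groups were fully apart for 6 of the 33, all higher in Cdk6-/-. Of all tested genes 7.56% were apart and higher and 7.98% apart and lower. The 4 with the smallest p were Ier3, a survival gene (log2 fold change 1.26, edgeR adjusted p = 0.0947), Per1, a clock gene that CREB induces (1.62, adjusted p = 0.0976), Ppp1r15a, a phosphatase subunit of the stress response (0.99, adjusted p = 0.0987), and Arl4d, a small GTPase (1.92, adjusted p = 0.124). Each of these was higher in all 6 Cdk6-/- tumours than in any Cdk6+/+ tumour. Ier3 had 7.06, 6.27 and 4.93 CPM against 8.88 to 24.9, and Per1 had 9.47, 13.2 and 10.5 CPM against 14.8 to 72.7. Without tumours 1 and 5, 6 of the 32 tested rose and 0 fell, those 4 with Jund (0.85, edgeR adjusted p = 0.0341) and Trib1 (0.62, adjusted p = 0.0332), where 8.12% of all genes rose.

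Upstream, 1 of 24 SRF, CREB and MAP kinase genes rose and 0 fell, where 2.76% of all genes rose and 2.43% fell, a count near that background. Their median log2 fold change was 0.38. Crtc2, a coactivator that moves to the nucleus and joins CREB when cyclic AMP or calcium rises, had 19.8, 28.3 and 15.8 CPM in Cdk6+/+ and 38.5 to 93.9 CPM in Cdk6-/- tumours. It rose by 1.5 on the log2 scale (SE 0.37, edgeR adjusted p = 0.0460), a call that was lost without any 1 of 7 tumours (Cdk6+/+ 1, 2 or 3, Cdk6-/- 2, 3, 4 or 6; adjusted p 0.0518 to 0.226). It held without tumours 1 and 5 (1.64, adjusted p = 0.0179). Elk4, an ETS partner of SRF, had 36.4 to 39.6 CPM and 46 to 99.2 CPM (log2 fold change 0.92, adjusted p = 0.0815), and rose by 1.07 without tumours 1 and 5 (edgeR adjusted p = 0.00862). Mkl2, an actin-regulated partner of SRF, had 1.18 (adjusted p = 0.136), and Mef2d, a calcium-responsive factor, 0.82 (adjusted p = 0.145). Both had groups fully apart, higher in Cdk6-/-, as 7.56% of all tested genes had. Without tumours 1 and 5 Crtc2, Elk4 and Mkl2 (0.66, edgeR adjusted p = 0.0393) rose and Mef2c, a calcium-responsive factor of neurons and muscle, fell by 0.88 (adjusted p = 0.0226), where 8.12% of all genes rose and 6.14% fell. SRF itself (Srf, 0.41, adjusted p = 0.697) and CREB (Creb1, -0.33, adjusted p = 0.561) overlapped.

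Among 14 feedback inhibitors of MAP kinase signalling and of Egr factors 2 rose and 0 fell, where 2.76% of all genes rose and 2.43% fell. Their median log2 fold change was 0.59. Spred3, an inhibitor of Ras signalling, had 13.0, 15.6 and 10.5 CPM in Cdk6+/+ and 26.7 to 47.9 CPM in Cdk6-/- and rose by 1.5 (SE 0.29, edgeR adjusted p = 0.0166). Dusp5, a nuclear phosphatase that inactivates ERK and is itself induced by it, had 36.6, 42.7 and 27.7 CPM against 70.2 to 144 CPM and rose by 1.49 (SE 0.32, edgeR adjusted p = 0.0265). Their values without tumours 1 and 5 were 1.51 (adjusted p = 0.00761) and 1.23 (adjusted p = 0.0120). Without any 1 Cdk6+/+ tumour neither passed (adjusted p 0.0549 to 0.158). Nab2, a corepressor that binds Egr1 and is induced by it, had 2.77 to 3.37 CPM in Cdk6+/+ and its highest Cdk6-/- values in the same tumours as Egr1, 53.5 CPM in tumour 1 and 34.0 in tumour 5, while tumour 2 overlapped (log2 fold change 2.63, SE 0.91, edgeR adjusted p = 0.138). Spry4, an inhibitor of receptor tyrosine kinase signalling, had 0.65 (adjusted p = 0.245).

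Of 14 activity-regulated effector genes, which follow the immediate early wave in neurons, 12 were tested and none passed, where 5.19% of all genes did. DESeq2 called 0, where it called 8.01% of its tested genes higher and 3.84% lower. In edgeR 1 had an unadjusted p under 0.05, and the median log2 fold change was 0.78, beside 0.16 over all tested genes. The 4 with the smallest p were Mmp9 (1.08, edgeR adjusted p = 0.258), Nrn1 (0.66), Vgf (0.74) and Scg2 (1.18, adjusted p = 0.428). They encode a matrix protease, the neurite growth protein neuritin, a neuropeptide precursor and a secretogranin. Without tumours 1 and 5, 1 of the 12 rose and 2 fell, where 8.12% of all genes rose and 6.14% fell, so the count that rose was near the background. Nptx2, a pentraxin that gathers AMPA receptors, rose by 1.34 (edgeR adjusted p = 0.0276), while Bdnf, a neurotrophin, fell by 1.68 (adjusted p = 0.0431) and Rgs4, a G protein regulator, fell by 1.47 (adjusted p = 0.0343). The lists share these tumours with the 10 genes above, and no difference between lists was tested.

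**Figure D5:**
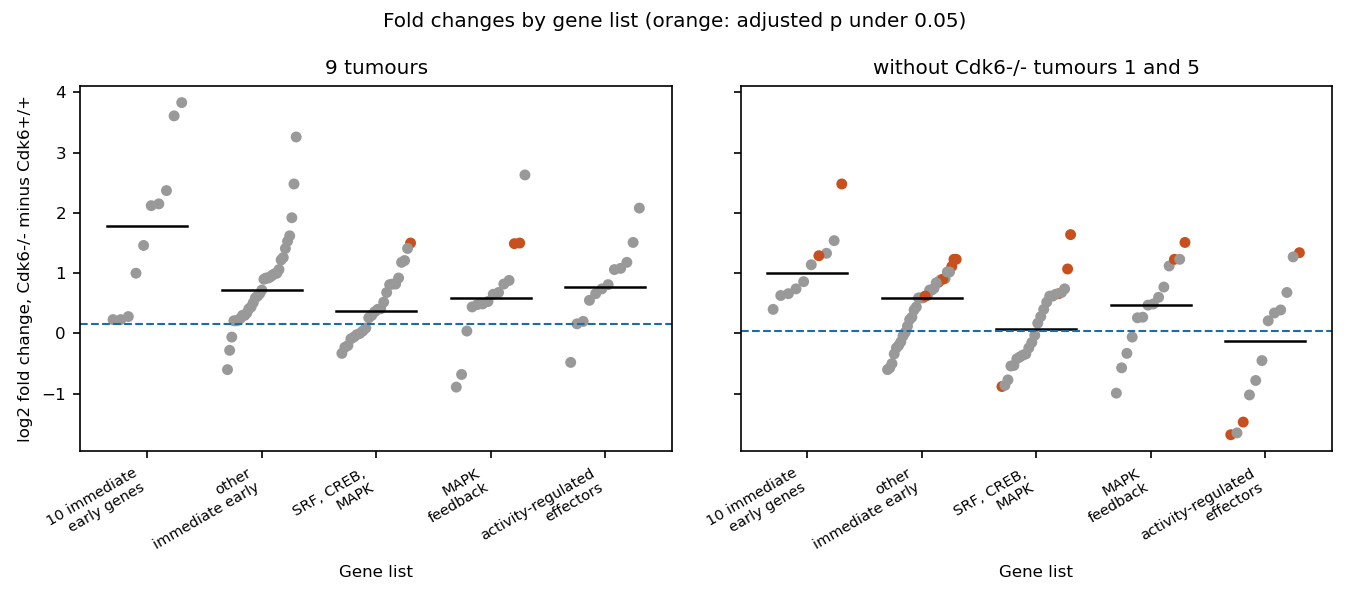
Log2 fold change of each gene by list, with 9 tumours (left) and without Cdk6-/- tumours 1 and 5 (right); black lines are list medians, the dashed line is the median of all tested genes (0.16 and 0.04) and orange points have an edgeR adjusted p under 0.05. The 10 immediate early genes have the highest list median in both panels, 1.79 and 1.00.

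The 5 tested genes outside the 10, of 15139 with a mean of at least 1 CPM, whose centred log2 profile over the 9 tumours lay closest to the mean profile of the 10 were Mxd1, Ccdc120, Foxj2, Gm11766 and 2610037D02Rik. Their root mean square differences from it were 0.15 to 0.22 on the log2 scale. Mxd1, which encodes a Max partner that opposes Myc, had 20.1, 21.3 and 19.8 CPM in Cdk6+/+ and 37.0 to 110 CPM in Cdk6-/- tumours (log2 fold change 1.45, edgeR adjusted p = 0.0521). Foxj2, a forkhead factor, rose from 30.8 ± 5.61 to 78.6 ± 18 CPM (SD, n = 3 and 6; log2 fold change 1.35, SE 0.26, edgeR adjusted p = 0.0162), and passed in 6 of the 9 fits that left out 1 tumour (adjusted p 0.0114 to 0.117). The 10 genes themselves lay 0.38 (Nr4a1) to 1.42 (Egr2) from their mean profile, 5 of them farther than the median gene at 0.91.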

How the data were processed

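RNA of 9 flash-frozen tumours was extracted with Trizol and made into libraries with an Illumina TruSeq RNA kit, per the labels' protocols. Reads were handled with FastQC, Trimmomatic, HISAT2 and DESeq2 on GRCm38.p6, per the submitters' processing notes, in no stated order. The sources used here do not name the counting tool or its strand setting. Deposited by the authors were whole-number counts per gene, unnormalized, with exon lengths, and a DESeq2 table whose log2 fold changes with standard errors and p-values are printed as deposited.

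Groups came from the genotype label. Counts were filtered (filterByExpr) and tested with edgeR 4.0.16 (R 4.3.3; TMM, robust quasi-likelihood F test, genotype only, two-sided, Benjamini-Hochberg over 18356 genes, threshold 0.05). Alternatives used DESeq2 1.42.0, limma 3.58.1, other filters and scaling, a Y-linked covariate and fewer tumours. Shared sequence is the share of a gene's 50-base sequences found in another gene's GENCODE M21 transcripts. Named genes are the 10 members, the 4 smallest p per pathway list, the most abundant or defining marker genes, and the 5 nearest profiles; others named were chosen after their values were seen. Members, lists and rules were chosen with earlier results of these data known.

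On simulated data for this comparison, with 100 genes changed 2-fold and 100 changed 4-fold, 0% and 17% were recovered at the fitted dispersion (17845 genes), and 67% and 97% with dispersions of at most 0.05 (17890 genes). Between any pair of libraries within a group, the chi-square of the counts was at least 31.2 per degree of freedom, and all 9 were kept as separate samples.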

Additional observations from a re-analysis of the deposited data

Results flagged for a closer look

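Npas4 in Cdk6-/- tumour 1, at 39.7 CPM, lay far above the other Cdk6-/- tumours, the next of which was tumour 5 at 5.66 CPM. The gap made up 0.873 of the group's range, above the limit of 0.625 for 6 samples. It was 1 flag among 10 genes examined. The limit would flag about 1 in 20 groups of normally distributed values. CPM were used untransformed and their distribution was not tested, so the rate here is not known.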

How the results depend on the processing

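Against 953 genes called over all 9 tumours (507 higher, 446 lower), DESeq2 gave 2887 (1951 higher, 936 lower), a filter of 1 CPM in 3 tumours 563 (244 higher, 319 lower), the Y-linked covariate 85 and the comparison without Cdk6-/- tumours 1 and 5 2643. Leaving out 1 tumour gave 207 to 1506, with 221, 400 and 207 without Cdk6+/+ tumour 1, 2 or 3, 525 without Cdk6-/- tumour 3 and 1506 without tumour 5. For the 10 immediate early genes 0 calls became 6 with DESeq2, 1 (Fosb) without a filter on low counts, 2 (Fosb and Egr1) without tumours 1 and 5, and 0 to 2 leaving out 1 tumour: Fosb passed without Cdk6-/- tumour 2, 4, 5 or 6 (edgeR adjusted p 0.0451 to 0.0494) and Egr1 without tumour 6 (adjusted p = 0.0463). For the other immediate early genes 0 became 5 with DESeq2, 6 without tumours 1 and 5 and 0 to 3 leaving out 1 tumour (3 without Cdk6-/- tumour 5). The SRF, CREB and MAP kinase list had 1 call, 2 with DESeq2, 4 without tumours 1 and 5, 0 without a low-count filter, with the 1 CPM filter, the replicate block or the Y-linked covariate, and 0 to 2 leaving out 1 tumour. The feedback list had 2, 0 with the Y-linked covariate and 0 to 2 leaving out 1 tumour. The effector list had 0 and 3 without tumours 1 and 5. Signs turned for Egr2 with limma-voom (-0.14) and without Cdk6-/- tumour 6 (-0.03; -0.03 to 0.53 leaving out 1 tumour), and for Ier2 with limma-voom (-0.05) and the replicate block (-0.33). The median log2 fold change of all genes was 0.16, but 0.00 with limma-voom and 0.01 with the replicate block. Fewer tumours enter the fits without a tumour; the cause of the other shifts was not tested. Of 170 other fits of single members, 150 kept direction and side of the threshold.

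Deviations from the group means of tumours with the same number had correlations of 0.0739, -0.263 and -0.385. These values show no pairing by number, but so few pairs cannot exclude it. With the replicate block 2 of the 10 passed edgeR's test, Fosb (log2 fold change 3.56, adjusted p = 0.0245) and Egr1 (2.11, adjusted p = 0.0492), of 822 genes in all. Depth limits Fosb most, with 4 to 8 reads per Cdk6+/+ tumour.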

Other observations

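Further activity-linked genes, named after their values were seen, were high in Cdk6-/- tumours 1 and 5 and below the Cdk6+/+ range in the other Cdk6-/- tumours. Nr4a3, a relative of Nr4a1, had 43.9 and 55.4 CPM in these tumours, 2.75 to 3.82 CPM in Cdk6+/+ and 1.75 to 2.42 CPM in Cdk6-/- tumours 2, 3, 4 and 6. Bdnf had 38.1 and 25.1 CPM there, 3.68 to 4.25 CPM in Cdk6+/+ and 0.371 to 1.84 CPM in the other Cdk6-/- tumours. Rasgrp1, an activator of Ras that responds to calcium, had 119 and 108 CPM, then 7.08 to 12.4 and 1.03 to 4.72 CPM. Over 9 tumours none of them passed edgeR's test (adjusted p = 0.348, 0.583 and 0.498).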
